A study of Mus musculus and Rattus norvegicus with 6 samples.

Results

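The miRNAs miR-296 and miR-298 are 2 neighbouring hairpins beside the imprinted Gnas gene, and each gives a 5p and a 3p mature arm. All 4 arms, mmu-miR-296-5p, mmu-miR-296-3p, mmu-miR-298-5p and mmu-miR-298-3p in mouse, are listed in both the mouse and the rat table of retinal miRNA counts, out of 1915 names in mouse and 764 in rat, of which 542 are the same in both. The members were taken by miRNA number, and the hairpins were chosen for a joint fall in rat and a change of arm usage seen in these same libraries. Their differences between the species are therefore given as a description, with no test. The data did not bear out the joint fall for every arm: 3 of the 4 arms were lower in rat, and miR-298-3p was higher. The labels give 3 retina libraries from wild-type C57BL/6 mice and 3 from wild-type Sprague Dawley rats, all 9 weeks old and with no treatment named. Strain, count table and species change together in this design and cannot be told apart. The labels do not say whether each library came from a separate animal, so the spread may be technical in part.

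The Gnas locus makes several transcripts from the maternal or the paternal allele, among them the stimulatory G protein subunit and, from the opposite strand, the antisense transcript Gnasas1, also called Nespas. The hairpins miR-296 and miR-298 belong to this imprinted cluster and are known to be expressed from the paternal allele. A miRNA pairs with messenger RNAs through its seed, bases 2 to 8, and lowers their output, and the arm of the hairpin that is loaded into Argonaute decides which seed acts. In other tissues miR-296-5p is known from growing blood vessels and from embryonic stem cells, and miR-298-5p from the control of Bace1, the protease that starts the cut of amyloid precursor protein.

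The hairpins are shown because a shift between arms replaces one seed by another. The sequences are those of RefSeq for the mouse build GRCm38.p6, written 5′ to 3′, with both mature arms in capitals.
Mir296: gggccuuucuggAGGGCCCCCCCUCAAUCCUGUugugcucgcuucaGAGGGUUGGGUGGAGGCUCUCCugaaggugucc
Mir298: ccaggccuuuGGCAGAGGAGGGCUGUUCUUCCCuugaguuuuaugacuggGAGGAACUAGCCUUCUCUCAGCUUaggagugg
In the mature arms below, the capitals mark the seed.
miR-296-5p: aGGGCCCCcccucaauccugu
miR-296-3p: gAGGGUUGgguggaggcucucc
miR-298-5p: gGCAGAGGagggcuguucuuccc
miR-298-3p: gAGGAACUagccuucucucagcuu

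All 4 arms matched a RefSeq entry by name, and their seeds differ from each other. Among 1679 mature mouse miRNAs in that table, 0 others have the seed of any of the 4 arms. With the shorter match of bases 2 to 7, miR-296-5p has 1 relative, miR-5621-3p. Mouse libraries held it at 0.539 to 0.819 CPM, the count of a name brought to a common total over all names of its table. The other 3 arms have 0. The arms of miR-296 are rich in G and C, at 66.7% (5p) and 68.2% (3p), against a median of 52.2% over the mature table. In miR-298 the 5p arm has 65.2% and the 3p arm 50.0%. Folded alone with RNAfold, the hairpins had predicted minimum free energies of -43.2 (miR-296) and -42.7 kcal/mol (miR-298). In these folds 18 of 21 bases of miR-296-5p, 20 of 22 of miR-296-3p, 22 of 23 of miR-298-5p and 20 of 24 of miR-298-3p were paired. The rat sequences behind the same names were not compared here.

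In mouse the hairpins lie on the minus strand of chromosome 2, Mir298 at chr2:174267504-174267585 and Mir296 at chr2:174267047-174267125, with 378 bases between them. The annotated antisense transcript Gnasas1, on the same strand, spans chr2:174281237-174295436. Its annotated end lies 13651 bases upstream of Mir298 in the direction of transcription, so that neither hairpin falls inside an annotated exon or intron of it. The Gnas gene starts 16734 bases from Mir298, on the plus strand.

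Libraries held 24169628 to 30514632 counts. The marker miRNAs of photoreceptors and neural retina (miR-183, miR-182, miR-96, miR-124 and miR-9) summed to between 507696 and 533921 CPM in mouse, with 5 of 5 names listed. In rat 3 of 5 exact names were listed and summed to 173654 to 202990 CPM, while miR-182 and miR-9a-5p stood there under their own names at 200317 to 291655 and 44870 to 77589 CPM. Rat library r1 stood apart from r2 and r4. The 7 lens, cornea and epithelial markers summed to 9422 CPM in r1, against 1827 and 1208 CPM in r2 and r4, with 0 of the 7 listed at 0. Most of this was miR-184, a lens and cornea miRNA, at 9369 CPM in r1, against 1761 and 1119 CPM in r2 and r4. As a share of all names, the other names did not share this rise. Those of miR-205 (4.72 CPM), miR-200b-3p (27.6), miR-200c-3p (7.36), miR-141-3p (0.248) and miR-429 (0.786) were each lowest in r1 among the rat libraries. For miR-200a-3p, r1 (12.5 CPM) lay between r2 (10.99) and r4 (15.9). The scaled CPM defined below put the 3 tested names highest in r1. For r1, r2 and r4 these levels were 24.4, 12.3 and 17.8 (miR-200a-3p), 53.8, 33.2 and 45.9 (miR-200b-3p) and 14.3, 12.9 and 14.2 (miR-200c-3p). In mouse 4 of these 7 exact names were listed, with 0 at 0 and a sum of 16.4 to 42.8 CPM, and miR-184-3p, a name outside that list, was at 308 to 1246 CPM. As a share of all names, each arm of miR-296 and miR-298 was lowest in r1 among the rat libraries. In the scaled CPM defined below this held for the 5p arms only. There miR-296-3p was highest in r1 (2.42, against 1.68 in r2 and 2.27 in r4). The level of miR-298-3p in r1 (5.56) lay between r4 (5.13) and r2 (6.58). The 2 markers of the retinal pigment epithelium, miR-204-5p and miR-211-5p, summed to 13778 to 16134 CPM in mouse and 24512 to 30822 CPM in rat, with 0 at 0. Both were called higher in rat by edgeR, by log2 differences of 0.63 ± 0.21 (miR-204-5p) and 0.80 ± 0.20 (miR-211-5p), each with its SE. Of the 7 epithelial names 3 were tested. The epithelial miR-200a-3p (1.48 ± 0.27) and miR-200c-3p (0.88 ± 0.29) were called higher in rat, and miR-200b-3p (0.74 ± 0.37) was not called. Over all tested names 25.6% were called higher and 24.4% lower. Muscle markers summed to 642 to 883 CPM in mouse, mostly miR-1a-3p at 622 to 858 CPM, a name without a match in rat. Of 2 muscle names tested, miR-133a-3p was called lower in rat (-1.11 ± 0.28) and miR-206-3p (0.56 ± 0.24) was not called. None of the tested endothelial, red blood and leukocyte markers was called. The part of these markers in the results was not tested. Without r1 the log2 differences of the members were -2.53 (miR-296-5p), -4.33 (miR-296-3p), -3.03 (miR-298-5p) and 2.53 (miR-298-3p), close to the values with it.

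Levels below are in scaled CPM, for which the total is that of the names shared by both tables, adjusted by TMM factors. A count stands for a read of a whole mature miRNA, so levels were not divided by length. In mouse, miR-298-5p was the most abundant arm, with 1077, 1253 and 1310 counts in libraries m1, m3 and m4. These came to 62.4, 64.6 and 66.5 scaled CPM. In rat it had 78, 206 and 172 counts in r1, r2 and r4, or 6.29, 9.09 and 6.84 scaled CPM. Every mouse library lay far above every rat library. The mean was 64.5 ± 2.07 in mouse and 7.40 ± 1.49 in rat, by SD over 3 libraries each, a ratio of 8.71. The log2 difference, rat minus mouse, was -3.12 ± 0.20 (SE).

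The other arm of this hairpin went the opposite way. In mouse, miR-298-3p had 13, 34 and 10 counts in m1, m3 and m4, or 0.753, 1.75 and 0.508 scaled CPM. In rat it had 69, 149 and 129 counts in r1, r2 and r4, or 5.56, 6.58 and 5.13 scaled CPM. All rat libraries lay above all mouse libraries. The mouse counts are low, and m3 was apart: its 95% Poisson interval of 23.5 to 47.5 counts does not overlap those of m1 (6.92 to 22.2) and m4 (4.80 to 18.4). These intervals cover counting error only. The mean was 1.005 ± 0.66 in mouse against 5.75 ± 0.74 in rat (SD, n = 3 per species). The log2 difference was 2.51 ± 0.40 (SE). The size leaned on m3, and without it the log2 difference was 3.19.

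For miR-296-3p, the leading arm of miR-296 in mouse, m1, m3 and m4 had 733, 719 and 787 counts, or 42.4, 37.1 and 40.0 scaled CPM. In rat it had 30, 38 and 57 counts in r1, r2 and r4, or 2.42, 1.68 and 2.27 scaled CPM. The groups did not overlap, and this was the widest gap of the 4 arms. The mouse mean of 39.8 ± 2.68 was 18.8 times the rat mean of 2.12 ± 0.39 (SD, n = 3 each). The log2 difference was -4.24 ± 0.22 (SE).

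The 5p arm, miR-296-5p, the one known for its work in blood vessels, was less abundant than its partner in each mouse library. It had 216, 251 and 183 counts in m1, m3 and m4, or 12.5, 12.9 and 9.29 scaled CPM. In rat it had 19, 48 and 47 counts in r1, r2 and r4, or 1.53, 2.12 and 1.87 scaled CPM. Again the groups did not overlap. The mean was 11.6 ± 1.996 in mouse against 1.84 ± 0.29 in rat (SD, n = 3 per species), a ratio of 6.30. The log2 difference was -2.63 ± 0.24 (SE).

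**Figure D1:**
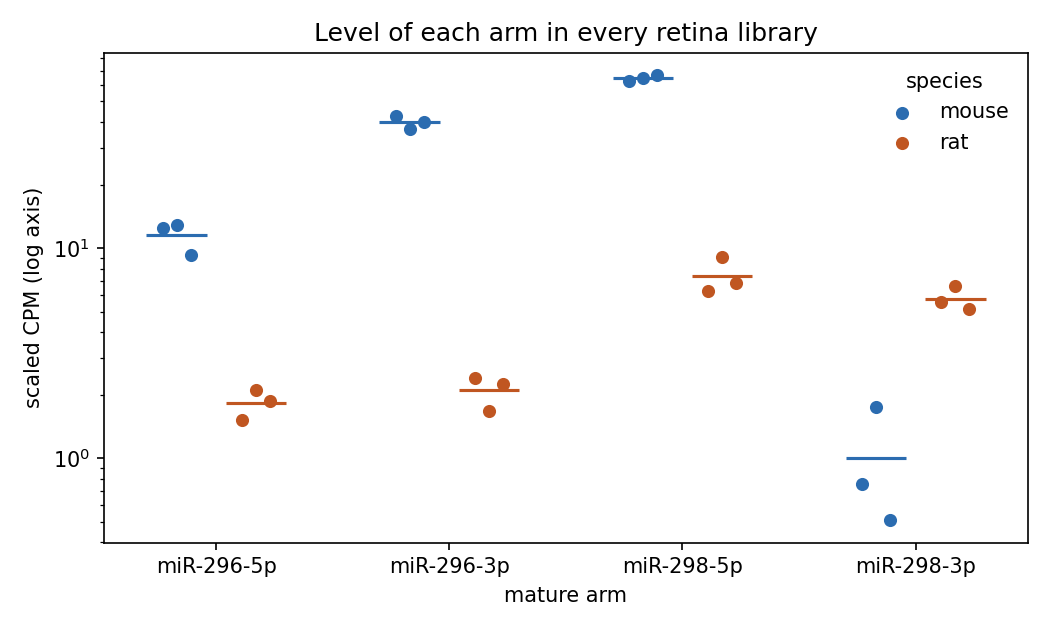
Scaled CPM (log axis) of the 4 arms in each library, mouse in blue (m1, m3, m4 from left to right) and rat in orange (r1, r2, r4), with bars at the means. The mouse points lie above the rat points for miR-296-5p, miR-296-3p and miR-298-5p and below them for miR-298-3p, where m3 is the highest mouse point at 1.75.

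The order of the arms differed between the species. In the mouse libraries the order was miR-298-5p, miR-296-3p, miR-296-5p and miR-298-3p, and no neighbours in it overlapped. In rat, both arms of miR-298 lay above both arms of miR-296. Within each hairpin the rat arms overlapped: miR-298-3p reached 6.58 scaled CPM where miR-298-5p began at 6.29, and miR-296-5p reached 2.12 where miR-296-3p began at 1.68. Among all names of the mouse table, miR-298-5p ranked 210, miR-296-3p 237, miR-296-5p 337 and miR-298-3p 582 of 1915. Among 764 rat names the ranks were 339 (miR-298-5p), 349 (miR-298-3p), 408 (miR-296-3p) and 414 (miR-296-5p).

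All 4 arms passed the filter on low counts and stood among the 398 shared names tested with edgeR's quasi-likelihood test. In that test 50.0% of names were called, that is, had an adjusted p (Benjamini-Hochberg) under 0.05, with 25.6% higher and 24.4% lower in rat. The libraries of the species did not overlap for 59.8% of names. The 4 arms are among those called and among those not overlapping, but they were picked on this contrast, and nothing is read from these counts. Ordered from the lowest log2 difference, miR-296-3p stood at place 5, miR-298-5p at 14 and miR-296-5p at 16 of 398, and miR-298-3p stood at place 25 from the highest. The median over the 398 names was 0.08. With library totals in place of TMM factors this median moved up by 0.36. The tested names then split into 127 higher and 43 lower, against 102 and 97. The differences of miR-296-5p, miR-296-3p and miR-298-5p were -2.25, -3.91 and -2.75 in that scaling, still below 0.

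**Figure D2:**
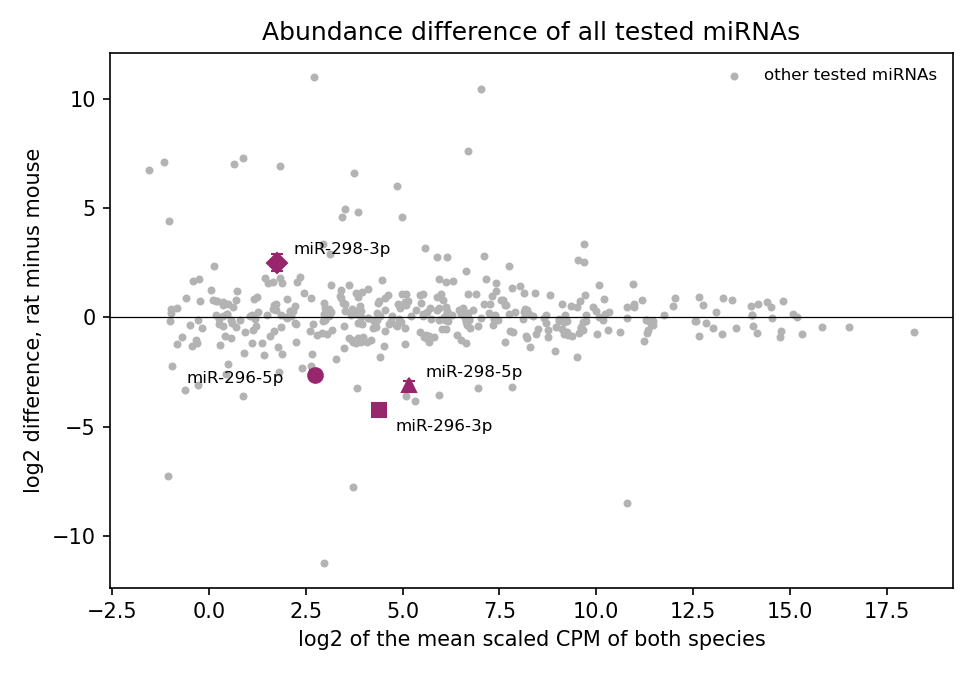
Log2 difference in abundance, rat minus mouse, of the 398 tested names against the log2 of their mean scaled CPM, with the members in purple and their SE as bars, mostly shorter than the symbols. The other arms lie between -2.63 and -4.24 and miR-298-3p lies at 2.51.

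Arm usage was compared as the share of the 5p arm in the counts of both arms, which needs no scaling between libraries. For miR-298 the 5p share was 98.8% in m1 (95% exact binomial interval 98.0 to 99.4), 97.4% in m3 (96.3 to 98.2) and 99.2% in m4 (98.6 to 99.6). In rat it was 53.1% in r1 (44.7 to 61.3), 58.0% in r2 (52.7 to 63.2) and 57.1% in r4 (51.3 to 62.8). The hairpin thus gave almost only the 5p arm in mouse and both arms at like levels in rat. The means were 98.5% ± 0.99 and 56.1% ± 2.65 (SD, n = 3 each).

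For miR-296 the shift ran toward the other arm. The 5p share was 22.8% in m1 (20.1 to 25.6), 25.9% in m3 (23.1 to 28.8) and 18.9% in m4 (16.4 to 21.5). In rat it was 38.8% in r1 (25.2 to 53.8), 55.8% in r2 (44.7 to 66.5) and 45.2% in r4 (35.4 to 55.3). All 3 rat shares lay above the mouse shares, although the interval of r1 reached down to the upper mouse values. How often the arm shares of other hairpins separate in this way was not counted, so nothing is read from it. The means were 22.5% ± 3.51 in mouse against 46.6% ± 8.61 in rat (SD, n = 3 per species). These intervals cover counting error only, and the miR-296 shares in rat rest on 49 to 104 counts a library.

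**Figure D3:**
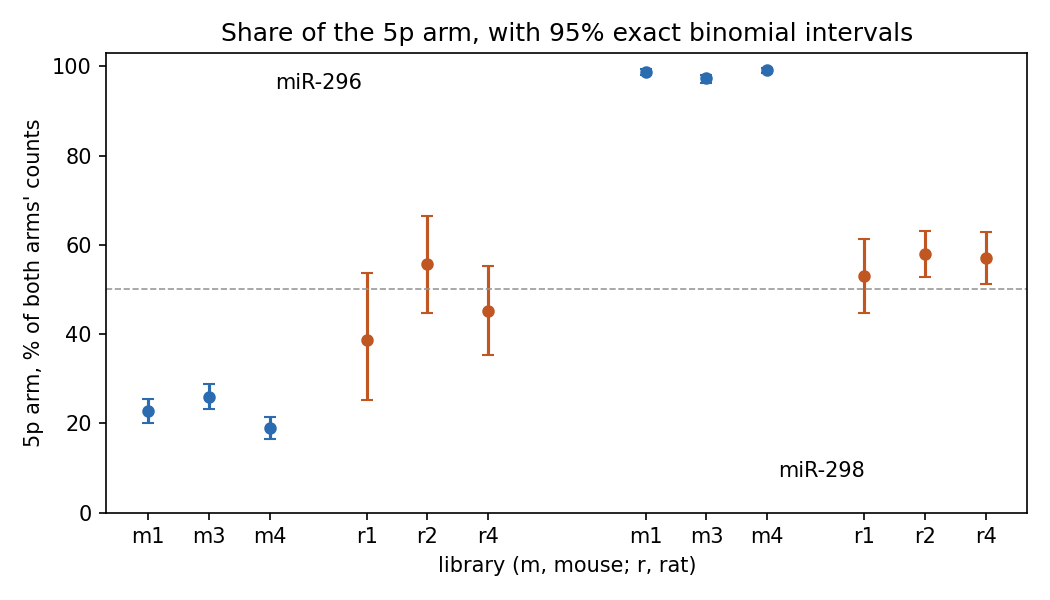
Share of the 5p arm in the counts of both arms, in %, for miR-296 (left) and miR-298 (right) in each library, with 95% exact binomial intervals and a dashed line at equal arms. The rat shares lie between 38.8% and 58.0% for both hairpins, while the mouse shares are at most 25.9% for miR-296 and at least 97.4% for miR-298.

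On the scale of log2((5p + 0.5)/(3p + 0.5)), miR-298 differed by -5.80 ± 0.46 (SE from limma) between rat and mouse, toward the 3p arm. Among the 169 hairpins with at least 50 counts over both arms in every library, 24.3% were called by limma and 16.0% were called toward 3p. There miR-298 had the largest difference toward 3p and the difference of 5th largest size in either direction. The hairpin miR-296 missed that minimum by 1 count in r1, where both arms together had 49 counts. At a minimum of 10 counts, 190 hairpins were tested, of which 26.3% were called, 8.42% toward 5p and 17.9% toward 3p. There miR-296 differed by 1.60 ± 0.32 (SE), toward the 5p arm, at place 39 by size. When the signed differences are put in order, miR-296 stood between miR-421 (1.57 ± 0.72) and miR-19a (1.60 ± 0.98). In the same signed order miR-298 stood between miR-363 (-6.25 ± 0.31) and miR-214 (-4.76 ± 0.21). Both members had more even arms in rat than in mouse, and so did 104 of the 190 hairpins (54.7%). The distance from equal arms was taken as the size of the mean log2 ratio of a species. Its median over the 190 was 5.01 in mouse and 5.11 in rat. From mouse to rat the distance went from 6.16 to 0.35 for miR-298 and from 1.79 to 0.20 for miR-296. The rat log2 ratios of miR-296 had both signs, at -0.65 (r1), 0.33 (r2) and -0.28 (r4). Their mean is therefore closer to equal arms than any of these libraries.

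**Figure D4:**
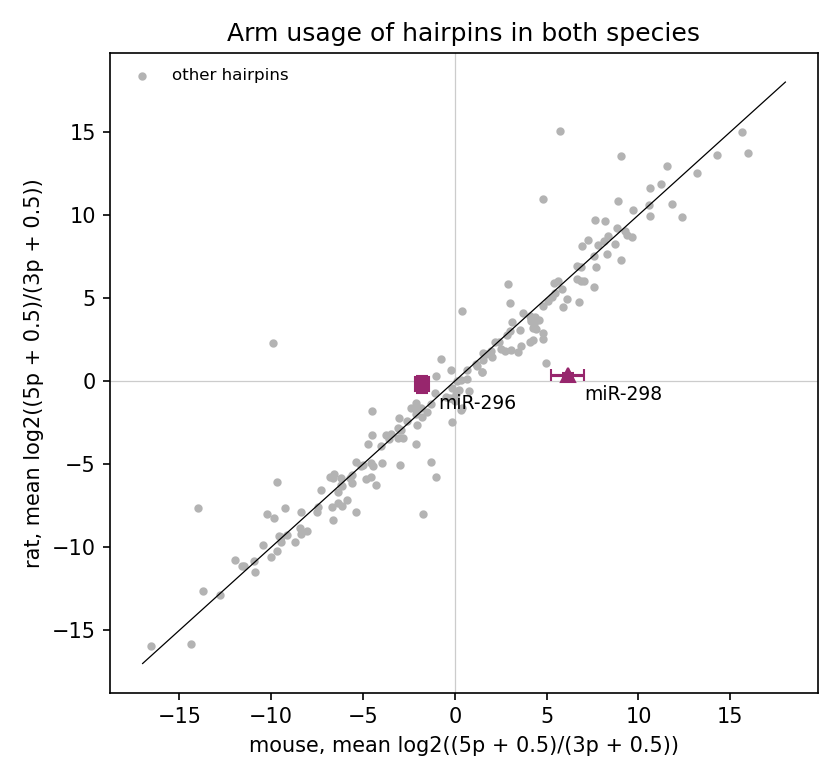
Mean log2((5p + 0.5)/(3p + 0.5)) in rat against mouse for 190 hairpins, with miR-296 and miR-298 in purple and the SD over 3 libraries as bars. Most hairpins lie near the diagonal of equal usage, and both members lie near 0 on the rat axis, at -0.20 (miR-296) and 0.35 (miR-298).

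Summed over both arms, each hairpin was lower in rat. For miR-296 the sum was 55.0, 50.0 and 49.2 scaled CPM in m1, m3 and m4 and 3.95, 3.80 and 4.13 in r1, r2 and r4. For miR-298 it was 63.1, 66.4 and 67.0 in mouse and 11.8, 15.7 and 11.96 in rat. Neither sum overlapped between the species, which was so for 60.5% of the 190 hairpins with at least 10 counts in every library. The log2 differences of the sums were -3.70 for miR-296 and -2.33 for miR-298. These were the 2nd and 7th lowest among the 190 hairpins, whose median was 0.08.

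The difference between the species was not of the same size for both hairpins. The ratio of miR-298 to miR-296 counts was 1.15, 1.33 and 1.36 in m1, m3 and m4 and 3, 4.13 and 2.89 in r1, r2 and r4. The mean was 1.28 ± 0.11 in mouse against 3.34 ± 0.68 in rat (SD, n = 3 per species), and the groups did not overlap. This ratio is taken within a library, so no scaling enters it. It was set beside other hairpins that are neighbours in the mouse genome, on 1 strand and at most 10 kb apart, with 53 pairs placed in all. The ratio within the pair did not overlap between the species for 56.6% of these pairs. Between the 2 hairpins of a pair, the log2 differences of the sums lay apart by a median of 0.55 (quartiles 0.28 and 1.37). For miR-296 and miR-298 the gap was 1.37, and 13 pairs had a wider one.

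**Figure D5:**
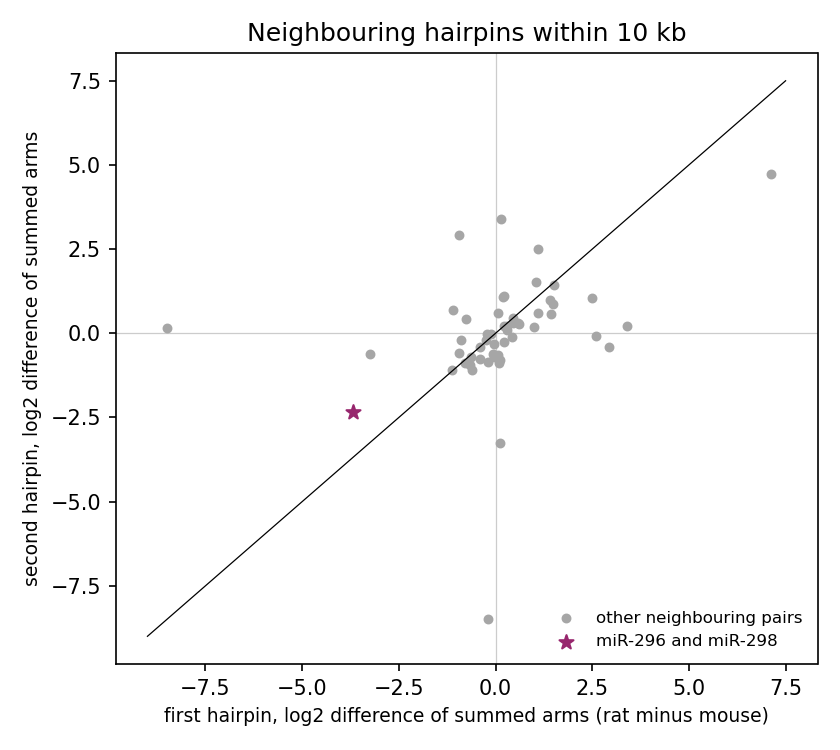
Log2 difference of the summed arms, rat minus mouse, of the second against the first hairpin in 53 pairs of neighbours within 10 kb, with the diagonal of equal differences. The star marks miR-296 (-3.70) and miR-298 (-2.33), which lie in the lower left where both differences are below 0.

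The names with the most similar profile over the 6 libraries were found by the root mean square distance between log2 CPM profiles, each centred on its own mean. Closest to miR-298-5p were miR-484 (distance 0.11), miR-344b-3p (0.15) and miR-501-3p (0.24), the name miR-344b being of a family with near-identical copies. Closest to miR-296-5p were miR-449a-5p (0.30), miR-298-5p itself (0.32) and miR-484 (0.32). For miR-296-3p they were miR-29b-1-5p (0.23), miR-1843b-3p (0.34) and miR-666-5p (0.40). Of these, miR-29b-1-5p was at 0.970 scaled CPM in mouse and 0 in rat, so its distance depends on the prior count added before the log was taken. The profile of miR-298-3p had no neighbour as close, with miR-450b-5p (0.48), miR-493-5p (0.51) and miR-323-3p (0.52) nearest.

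Among other miRNAs of imprinted loci, outside the large clusters, few could be tested. The list held both arms of miR-335 (in an intron of Mest), miR-483 (in Igf2) and miR-675 (in H19), 6 names, of which 2 were tested, 1 higher in rat and 1 not called, beside 50.0% called, 25.6% higher and 24.4% lower, over all tested names. The number lower was 0 with edgeR, also at an unadjusted p under 0.05, and 0 with DESeq2. The paternally expressed miR-483-5p rose from 2.87 scaled CPM ± 0.59 in mouse to 5.19 ± 1.18 in rat (SD, n = 3 per species). The log2 difference was 0.85 ± 0.26 (SE; edgeR adjusted p = 0.0257). This call was lost without m3 (adjusted p = 0.0920) or without m4 (0.0870). Its partner miR-483-3p differed by 0.10 ± 0.22 (edgeR adjusted p = 0.723). The list median was 0.47, against 0.08 over all tested names. The arms of miR-675 had 0 counts in mouse and at most 0.0395 CPM of all names in rat, so no level was detectable. The arms of miR-335 were at 352 to 384 CPM (5p) and 545 to 594 CPM (3p) of all names in mouse, and rat lists 1 name, miR-335, at 126 to 238 CPM. Because these names differ, no difference was formed.

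Beside miR-296-5p, endothelial and angiogenic miRNAs were measured as a list of 10, all tested: 1 was higher in rat, 4 were lower and 5 were not called. The share called is that of all tested names, 50.0%, of which 25.6% were higher and 24.4% lower. The list median was -0.11, against 0.08 over all tested names. The endothelial miR-126a-3p, the defining miRNA of vessel walls, was at 2654 scaled CPM ± 280 in mouse against 2417 ± 134 in rat (SD, n = 3 per species). Its log2 difference was -0.13 ± 0.15 (edgeR adjusted p = 0.490). With library totals its difference was 0.20. The call was made for miR-27b-3p (-0.84 ± 0.17, edgeR adjusted p = 0.00284) and also for miR-92a-3p (-0.83 ± 0.14, adjusted p = 0.00105), which limits vessel growth. By the mean over the 6 libraries the most abundant of the list was miR-378a-3p, which differed by 0.89 ± 0.36 (edgeR adjusted p = 0.0662). Without r1 it differed by 0.28 and was called (adjusted p = 0.00469), as it also was without r2 (1.14, adjusted p = 0.0238) or r4 (1.11, adjusted p = 0.0366). With library totals 2 members were called higher and 0 lower, and the calls of miR-27b-3p and miR-92a-3p were lost. Without m1 or without m3, 2 were called lower, and without r1, r2 or r4, 2 were called higher. The differences of these 10 ran from -0.84 to 0.89. The -2.63 of miR-296-5p lies outside, but its hairpin was picked on this contrast, so nothing is read from that.

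Among 9 miRNAs known, like miR-298-5p, to act on Bace1 or App messenger RNA, 6 could be tested: 0 were higher in rat, 1 was lower and 5 were not called, with a median of 0.05. Over all tested names 25.6% were higher, 24.4% lower and the median was 0.08. At an unadjusted p under 0.05 the edgeR test had 1 higher, and DESeq2 called 1 higher. The neuronal miR-124-3p was the member called lower, at -0.71 ± 0.17 (edgeR adjusted p = 0.00711), and lost its call with library totals (-0.33, adjusted p = 0.317). For miR-101a-3p (0.23 ± 0.21, edgeR adjusted p = 0.404), miR-29a-3p (-0.34 ± 0.20, 0.186) and miR-29b-3p (-0.06 ± 0.19, 0.806) no call was made. Without r1, 2 members were called higher and 2 lower, miR-29a-3p among the latter at -0.16 (adjusted p = 0.0429). With library totals miR-101a-3p was called higher (0.52, edgeR adjusted p = 0.0195) and 0 were called lower. Not tested were miR-9-5p, miR-328-3p and miR-195-5p, each listed by that exact name in 1 species only. In CPM of all names, miR-9-5p was at 56455 to 58027 in mouse and miR-9a-5p at 44870 to 77589 in rat. Likewise miR-328-3p was at 1174 to 1340 in mouse and miR-328a-3p at 874 to 2425 in rat. Of the miRNAs known with miR-296 to act on the coding sequences of stem cell factors, miR-134-5p, encoded in the imprinted Dlk1-Dio3 locus, rose from 215 scaled CPM ± 11.2 to 470 ± 89.3 (SD, n = 3 each). Its log2 difference was 1.13 ± 0.17 (edgeR adjusted p = 0.000666). The other, miR-470-5p, is in the mouse table only, with at most 0.0359 CPM of all names.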

How the data were processed

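Small RNA libraries from retina were read as 50-base single-end reads, per the labels' protocols, whose text speaks of rat eyes also for mouse samples. Each species has 1 table of raw counts by mature miRNA, deposited by the authors without normalization. The aligner, the annotation release and how reads with several matches were treated: not given in the sources used here. Columns m1, m3, m4, r1, r2 and r4 were assigned to a species, not to a numbered sample.

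Names were joined exactly after the species prefix was removed (542). Abundance was fitted with edgeR 4.0.16 in R 4.3.3 (filterByExpr, TMM, quasi-likelihood test, species only, Benjamini-Hochberg over 398 names); the SE is the log2 difference over the root of F. Arm usage was fitted with limma 3.58.1. DESeq2 1.42.0 served as an alternative. Both fits were checked on simulated data. Hairpins were folded with RNAfold 2.7.2. The members, lists and tests were chosen with earlier results of these data known. Named were all members, the 4 most abundant tested names of each list, the 3 nearest profiles and the neighbours in arm usage; the 6-base match, evenness and neighbouring pairs were added after the values were seen. Mouse positions are of GRCm38.p6, used for sequence and location only.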

Additional observations from a re-analysis of the deposited data

How the results depend on the processing

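In the alternatives run for the members (relative log expression, library totals, DESeq2, no low-count filter, a relaxed join of names and each library left out), each arm kept its direction. With library totals the log2 differences were -2.25 (miR-296-5p), -3.91 (miR-296-3p) and -2.75 (miR-298-5p), and with totals of all names the sums of both arms differed by -3.51 (miR-296) and -2.14 (miR-298). Leaving out 1 library gave 2.21 to 3.19 for miR-298-3p, the highest without m3. Library totals left 43 names called lower. When 1 library was left out, 9 to 21 hairpins were called toward 5p, and 17 (without any 1 mouse library) to 42 (without r1) toward 3p. Leaving out 1 library gave 0 to 1 imprinted members higher, 1 to 2 angiogenic members higher and 2 to 4 lower, and 0 to 2 Bace1 list members higher and 1 to 2 lower. Library totals gave 2 angiogenic members higher and 0 lower, and 1 Bace1 list member higher and 0 lower. DESeq2 gave 2 and 1 higher in these lists. Signs changed with library totals for miR-126a-3p (0.20), miR-29a-3p (0.061) and miR-29b-3p (0.33), and for miR-29b-3p without m3 (0.065) or r1 (0.088), whose range over left-out libraries was -0.14 to 0.088. The cause was not tested. No paired analysis was possible because the labels name no pairing of mouse with rat libraries. The column numbers (m1, m3, m4, r1, r2, r4) also do not match the replicate numbers of the labels. Depth limits miR-298-3p in mouse, with 10 to 34 counts a library, and both arms of miR-296 in rat, with 19 to 57.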
